A study of Homo sapiens with 12 samples.

Results

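The 10 genes described here code for transcription factors and one small GTPase that cells switch on early after a stimulus: the AP-1 subunits FOS, FOSB, FOSL1, JUN and JUNB, the zinc finger factors EGR1, KLF4 and KLF6, the helix-loop-helix repressor BHLHE40, and GEM. They were taken by symbol, matched to Ensembl identifiers, from a count table of 58735 genes. KLF6, BHLHE40, GEM and FOSB (4 of the 10) were picked because AG-205 raised them in both lines, so their AG-205 values are given as a description without a test. The other 6 were tested, although all 10 were chosen with earlier results of these data known. Bulk RNA sequencing was done on 12 libraries in 4 groups of 3: HEC-1A cells with AG-205, HEC-1A cells with DMSO, T-HESC cells with AG-205 and T-HESC cells with DMSO. HEC-1A is an epithelial line from a human endometrial adenocarcinoma, and T-HESC is a line of human endometrial stromal fibroblasts immortalized with telomerase. AG-205, a small molecule sold as a ligand of the membrane protein PGRMC1, was added at 15 µM for 32 h, and control cultures received its solvent DMSO for the same time. Each tissue origin was represented by 1 line, so that origin and line cannot be told apart. The 3 libraries of a group came from independent cultures; which AG-205 and DMSO cultures were run side by side was not stated.

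AP-1 is a pair of proteins, one from the JUN family bound to a JUN, FOS or ATF partner, which recognises short DNA motifs in the control regions of genes for proliferation, matrix remodelling and stress defence. FOS, JUN, JUNB and EGR1 belong to the immediate early genes: growth factors, stress or calcium switch them on within minutes through kinases and pre-existing factors such as SRF and CREB, and their transcripts are short-lived. KLF4 and KLF6 bind GC-rich promoters, BHLHE40 represses clock and metabolic genes at E-boxes, and GEM, an RGK-family GTPase, restrains calcium channels. A reading at 32 h therefore records a late level of these transcripts and not the first wave after addition.

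Total counts per library ran from 7168542 to 15178276, with the lowest in the third AG-205 library of HEC-1A. Levels are given as CPM, a gene's counts relative to its library total, scaled with one set of TMM factors over the 12 libraries. The spread between replicate libraries differed between the lines: in HEC-1A the common biological coefficient of variation was 10.1%, with a median SE of the log2 fold changes of 0.13, whereas T-HESC gave 33.6% and 0.33. Along the first principal component of the T-HESC libraries, which held 51.6% of the variance, the first AG-205 library lay at 89.3 and the other 5 between -37.9 and 2.77. The labelled lines matched their markers. With DMSO, 8 of 8 stromal markers were called higher and 7 of 8 epithelial markers lower in T-HESC than in HEC-1A, against 22.3% of all genes in each direction. COL3A1, THY1 and PDGFRB did not pass the filter in the HEC-1A fit, nor EPCAM, CDH1 and ESRP1 in the T-HESC fit. These entered through the line where they are high, so that they had to differ. The summed stromal markers were 20.0 to 27.0 CPM in HEC-1A, 24692 to 33383 CPM in T-HESC with DMSO and 9988 to 31686 CPM in T-HESC with AG-205, where the lowest value was again that of the first library. The summed epithelial markers were 1807 to 2006 CPM with DMSO and 2513 to 2601 CPM with AG-205 in HEC-1A, and 227 to 377 CPM in T-HESC. With AG-205 in HEC-1A, 7 of 8 had a positive log2 fold change and 2 were called higher, against 2.58% of all genes. Immune markers summed to 0.118 to 2.78 CPM and endothelial markers to at most 1.07 CPM. The part that these shifts had in the results was not tested.

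In the GENCODE 44 annotation of GRCh38 the AP-1 genes lie on 4 chromosomes, with FOS (ENSG00000170345) at chr14:75278826-75282230, FOSB (ENSG00000125740) at chr19:45467995-45475179, FOSL1 (ENSG00000175592) at chr11:65892049-65900573, JUN (ENSG00000177606) at chr1:58776845-58784048 and JUNB (ENSG00000171223) at chr19:12791486-12793315. The zinc finger and helix-loop-helix genes are EGR1 (ENSG00000120738) at chr5:138465479-138469303, KLF4 (ENSG00000136826) at chr9:107484852-107490482, KLF6 (ENSG00000067082) at chr10:3775996-3785281 and BHLHE40 (ENSG00000134107) at chr3:4979437-4985323. Promoter windows of 250 bases before the RefSeq start (GRCh38.p14) were found for 8 of the 10 genes. Those of FOS, JUN and JUNB, the tested genes with an adjusted p under 0.05 in HEC-1A, are shown with that of FOSB, which had the largest AG-205 value there, and that of EGR1, which did not pass the test in either line. The windows are FOS at chr14:75278578-75278827 on the plus strand, FOSB at chr19:45467746-45467995 on the plus strand, JUN at chr1:58784048-58784297 on the minus strand, JUNB at chr19:12791236-12791485 on the plus strand and EGR1 at chr5:138465229-138465478 on the plus strand. Each is written 5′ to 3′ on the strand of the gene, and capitals mark the motif matches described after them.
FOS: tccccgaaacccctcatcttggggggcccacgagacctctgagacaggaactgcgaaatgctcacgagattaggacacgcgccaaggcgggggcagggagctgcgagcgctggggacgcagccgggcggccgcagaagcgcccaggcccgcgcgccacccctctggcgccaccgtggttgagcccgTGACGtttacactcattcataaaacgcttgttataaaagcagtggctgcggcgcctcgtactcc
FOSB: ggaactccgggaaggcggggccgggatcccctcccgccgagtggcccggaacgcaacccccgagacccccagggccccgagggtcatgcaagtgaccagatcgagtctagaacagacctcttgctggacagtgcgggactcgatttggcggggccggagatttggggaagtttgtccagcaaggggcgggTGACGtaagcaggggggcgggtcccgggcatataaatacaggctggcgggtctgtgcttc
JUN: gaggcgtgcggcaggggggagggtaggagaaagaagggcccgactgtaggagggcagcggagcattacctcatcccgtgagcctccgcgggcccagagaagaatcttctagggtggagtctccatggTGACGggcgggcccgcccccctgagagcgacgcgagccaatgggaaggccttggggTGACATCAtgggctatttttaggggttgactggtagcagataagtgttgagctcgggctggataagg
JUNB: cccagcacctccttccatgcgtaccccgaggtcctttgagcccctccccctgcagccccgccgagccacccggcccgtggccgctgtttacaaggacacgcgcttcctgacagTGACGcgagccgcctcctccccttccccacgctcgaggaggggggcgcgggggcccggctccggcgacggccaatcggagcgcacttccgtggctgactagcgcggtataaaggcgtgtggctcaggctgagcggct
EGR1: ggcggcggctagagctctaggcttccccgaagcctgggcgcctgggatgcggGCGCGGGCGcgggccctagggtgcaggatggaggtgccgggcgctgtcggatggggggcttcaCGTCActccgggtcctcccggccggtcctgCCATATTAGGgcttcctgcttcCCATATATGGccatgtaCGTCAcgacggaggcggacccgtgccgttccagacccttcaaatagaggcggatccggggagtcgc
Motifs were searched on both strands. The consensus AP-1 site TGANTCA and the full cyclic AMP element TGACGTCA matched in none of the 8 windows, against 6.57% and 1.65% of 35116 promoter windows of the same length. The short form TGACG, which also lies inside the full element, was present in FOS (64 to 60 bases before the start), FOSB (60 to 56), JUN (123 to 119), JUNB (137 to 133), EGR1 at 135 to 131 and 66 to 62, and KLF4, and in 21.2% of all windows. The 8-base TGACATCA was found in JUN (67 to 60 bases before the start) and KLF6 (172 to 165), and in 2.37% of all windows. Within these 250 bases EGR1 alone of the 8 held CArG boxes, the motif of serum response factor. They were CCATATTAGG at 105 to 96 and CCATATATGG at 83 to 74, and 1.16% of all windows held at least 1. Sites further upstream, or departing from the letters searched, would be missed, so a gene without a match may still have one. The EGR site GCGNGGGCG matched in EGR1, KLF4 and KLF6 (8.41% of all windows) and the E-box CACGTG in KLF4, KLF6 and BHLHE40 (6.34%). TCACNCCAC, a sterol regulatory element, matched in none of the 8 (0.883% of all windows). TGACG and TGACATCA were added to the search after the windows had been read, and a match describes letters and not binding.

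In HEC-1A, AG-205 went with higher levels of the AP-1 transcripts FOS, JUN and JUNB, while FOSL1, EGR1 and KLF4 did not pass the test. Of the 6 tested genes, 2 were called higher (adjusted p below 0.05 and an absolute log2 fold change above 1) and none lower; the same call was made for 2.58% of the 14122 genes tested as higher. Without the limit on the fold, 3 of the 6 passed as higher and none as lower, against 7.35% and 4.28% of all genes. As the 6 were chosen with earlier results of these data known, these counts are no evidence for them as a set. In bulk RNA, more cells carrying a transcript and more transcript per cell cannot be told apart.

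FOS, the prototype partner of JUN proteins, measured 5.17, 8.23 and 3.65 CPM in AG-205 libraries 1, 2 and 3 and 1.82, 2.01 and 2.18 CPM in the DMSO libraries. The groups did not overlap, and the second AG-205 library stood highest; 14.2% of all genes had every AG-205 library above every DMSO library. The log2 fold change was 1.57 ± 0.29 (SE; adjusted p = 0.0039, edgeR's quasi-likelihood test). JUN, the subunit able to pair with itself, with FOS or with ATF proteins, measured 75.2, 89.5 and 59.1 CPM with AG-205 and 37.1, 38.5 and 39.4 CPM with DMSO. The DMSO libraries lay close together (38.3 ± 1.20 CPM, SD, n = 3) and well under the lowest treated library. Its log2 fold change was 1.00 ± 0.13 (adjusted p = 0.000367, edgeR), at the edge of the fold limit: it ranged from 0.86 to 1.13 over 13 alternatives and its call was lost in 7 of them, in each of which it fell below that limit. These 7 included leaving out the first AG-205 library (1.00, just under the limit), the second (0.86) or the first DMSO library (0.98). JUNB, a weaker activator that competes with JUN for partners, measured 73.4, 89.3 and 68.7 CPM against 43.3, 41.8 and 42.4 CPM. All treated libraries were higher, and the log2 fold change of 0.90 ± 0.11 (adjusted p = 0.000178, edgeR) fell short of the limit. In a single fit of all 12 libraries, where HEC-1A shares the spread of T-HESC, the adjusted p was 0.148 for FOS, 0.358 for JUN and 0.506 for JUNB; over the 13 alternatives these were the highest values, and the lowest were 9.4e-10, 9.0e-16 and 7.6e-13.

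FOSL1, a FOS-family subunit that lacks a strong activation domain and outlasts FOS after stimulation, measured 62.1, 63.7 and 53.2 CPM with AG-205 and 58.9, 55.0 and 55.2 CPM with DMSO. The groups overlapped, and the log2 fold change was 0.12 ± 0.10 (95% interval -0.09 to 0.33; adjusted p = 0.46, edgeR). EGR1, a zinc finger activator induced through SRF, measured 79.2, 94.3 and 58.4 CPM against 62.5, 67.0 and 63.4 CPM. The third AG-205 library lay below all 3 DMSO libraries, and the log2 fold change was 0.31 ± 0.14 (adjusted p = 0.181, edgeR). It was 0.15 without the second AG-205 library and 0.46 (adjusted p = 0.000103, edgeR) without the third, and 0.41 with library quality weights (adjusted p = 0.00223, limma); the adjusted p ran from 0.000103 to 0.933 over 13 alternatives. KLF4, an epithelial differentiation and pluripotency factor, measured 20.7, 21.4 and 18.4 CPM against 19.3, 17.8 and 20.5 CPM, with overlapping groups and a log2 fold change of 0.11 ± 0.11 (95% interval -0.14 to 0.36; adjusted p = 0.572, edgeR).

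The 4 genes picked from these values are described without a test. FOSB, the FOS paralogue whose variants accumulate on repeated stimulation, measured 4.03, 7.94 and 2.94 CPM with AG-205 and 0.414, 0.241 and 0.363 CPM with DMSO. Its DMSO values rest on 5, 3 and 4 counts, so that it entered the fit through the treated libraries, and its log2 fold change of 3.91 ranged from 3.40 to 4.12 over 13 alternatives. KLF6, a ubiquitous KLF factor induced by injury, measured 99.0, 122 and 111 CPM against 51.2, 51.9 and 48.1 CPM (log2 fold change 1.17). The treated libraries were close to one another, unlike those of FOS and FOSB. BHLHE40, also known as DEC1, measured 287, 340 and 241 CPM against 126, 128 and 121 CPM (log2 fold change 1.25), the highest CPM of the 10 genes in this line. GEM measured 1.75, 1.82 and 1.18 CPM against 0.579, 0.644 and 0.544 CPM (log2 fold change 1.48), from 26, 25 and 10 counts against 7, 8 and 6, and it too entered through the treated libraries. In the plot of CPM by library, the second AG-205 library of HEC-1A stood highest for all 10 genes.

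**Figure D1:**
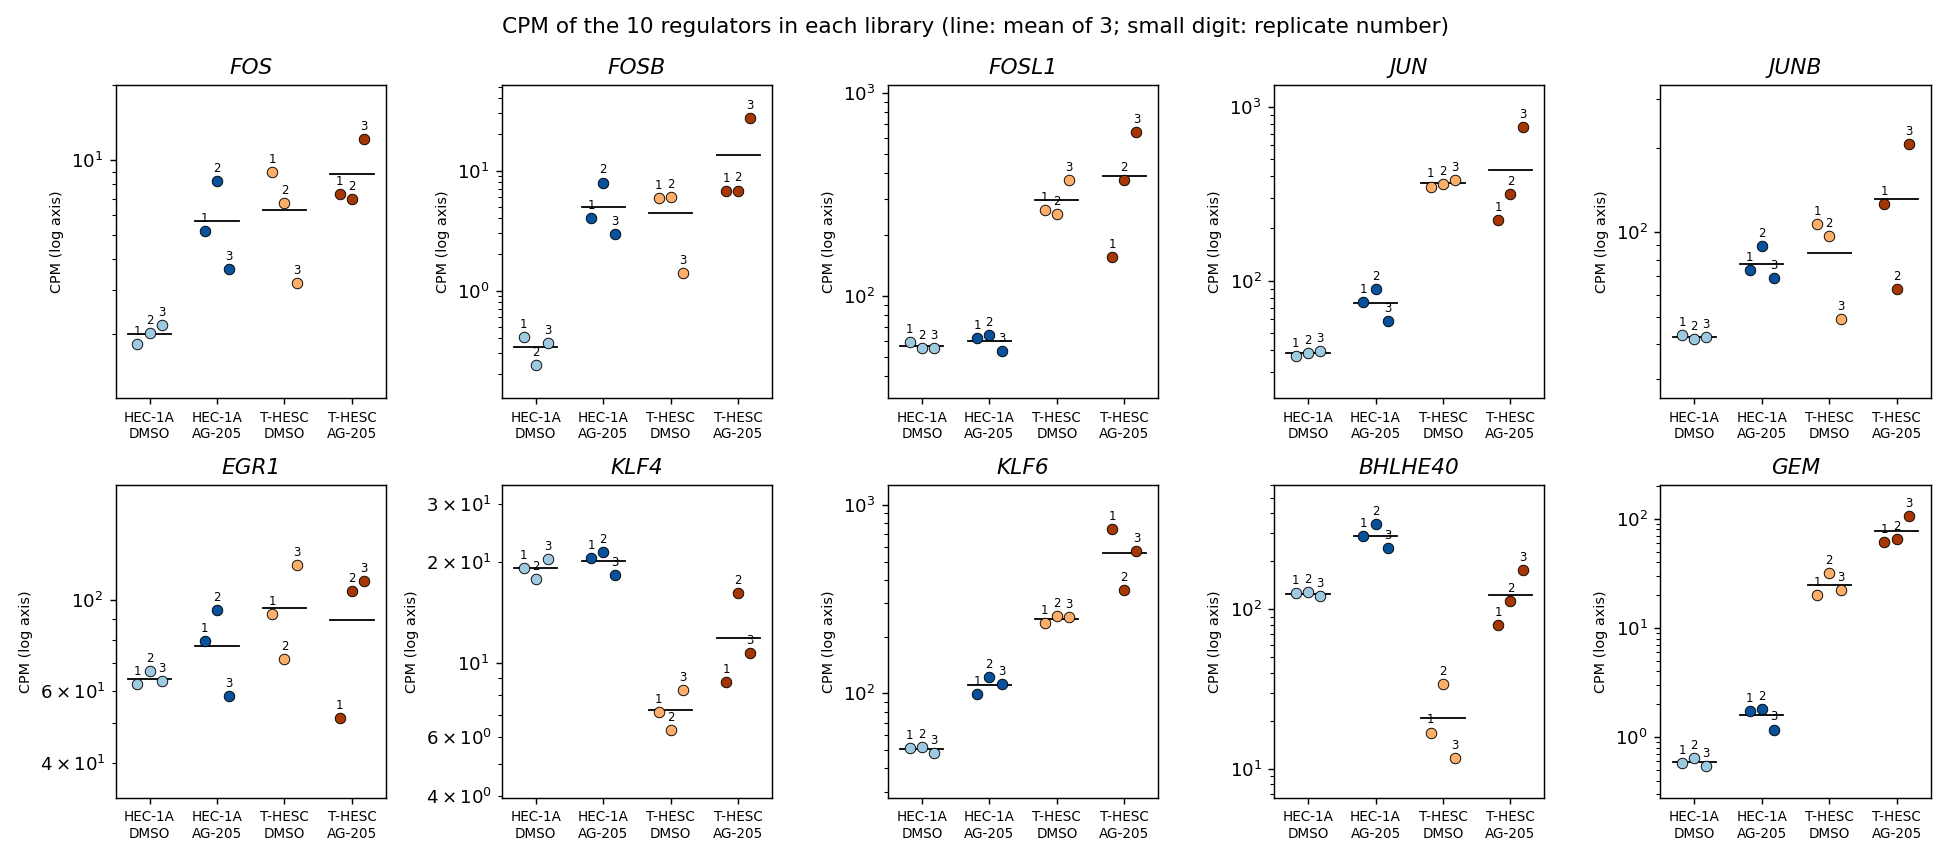
CPM of each of the 10 genes in the 12 libraries, on a log axis with its own range in each panel; points are libraries, the small digit is the replicate number and the line is the mean of 3. In HEC-1A the AG-205 libraries of FOS, FOSB, JUN, JUNB, KLF6, BHLHE40 and GEM lie above the DMSO libraries, and in T-HESC those of FOSB, KLF4, KLF6, BHLHE40 and GEM do.

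In T-HESC, none of the 6 tested genes was called (edgeR's quasi-likelihood test), with 1 at an unadjusted p below 0.05 and 0 called by DESeq2. Of all 13753 genes in this line, 0.08% were called higher, 740 had an unadjusted p below 0.05 and DESeq2 called 128. For the AP-1 subunits the libraries of one treatment differed from each other by as much as the treatments did. FOS measured 7.27, 6.96 and 12.2 CPM with AG-205 and 8.94, 6.73 and 3.20 CPM with DMSO. FOSL1 measured 155, 373 and 643 CPM against 263, 253 and 370 CPM. JUN measured 223, 313 and 765 CPM against 348, 361 and 381 CPM. For JUN the treated libraries therefore lay on both sides of the tight DMSO group (364 ± 16.6 CPM, SD, n = 3), and the third held 3.43 times the level of the first. JUNB measured 126, 63.1 and 206 CPM against 107, 96.8 and 49.2 CPM. EGR1 measured 51.6, 105 and 111 CPM against 92.4, 71.7 and 122 CPM. These 5 genes overlapped between the treatments, and the third AG-205 library was the highest of its group for each of them.

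The log2 fold changes in T-HESC were 0.47 ± 0.42 for FOS, 0.37 ± 0.45 for FOSL1, 0.23 ± 0.42 for JUN, 0.64 ± 0.46 for JUNB and -0.11 ± 0.32 for EGR1, each with an adjusted p of 0.993 (edgeR's quasi-likelihood test). Their 95% intervals reached from -0.50 to 1.43 for FOS and from -0.73 to 1.20 for JUN, so that a doubling was within them. Without the third AG-205 library the values of JUN and FOSL1 became -0.43 and -0.17, and without the first AG-205 library that of EGR1 became 0.14. With one library left out, FOS ran from 0.15 without the third DMSO library to 0.81 without the first, and JUNB from 0.19 without the third AG-205 library to 0.96 without the second. KLF4 was the one tested gene whose groups did not overlap, with 8.76, 16.2 and 10.7 CPM against 7.13, 6.31 and 8.29 CPM; every AG-205 library lay above every DMSO library for 6.23% of all genes and below for 4.7%. Its log2 fold change was 0.70 ± 0.29 (unadjusted p = 0.0434, adjusted p = 0.891, edgeR), and with library quality weights, which lower the say of libraries that stand apart, it was 1.06 (adjusted p = 0.0297, limma; 0.0297 to 1.00 over 13 alternatives). Without the second AG-205 library, the highest of its group, it was 0.41.

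The picked genes are again given without a test. KLF6 measured 743, 352 and 567 CPM with AG-205 against 237, 256 and 255 CPM, and its log2 fold change of 1.16 was 0.84 without the first AG-205 library. This library, which stood apart on the first principal component, held the highest KLF6 level of the 12 while it held the lowest FOSL1, JUN and EGR1 levels of the T-HESC libraries. BHLHE40 measured 79.8, 113 and 176 CPM against 16.9, 34.1 and 11.7 CPM (log2 fold change 2.54). GEM measured 61.6, 65.5 and 105 CPM against 20.0, 31.9 and 22.1 CPM (log2 fold change 1.64). Both kept a gap between treatments, and their values stayed between 2.22 and 3.08 and between 1.38 and 1.87 over 13 alternatives. FOSB measured 6.75, 6.81 and 27.2 CPM against 5.86, 6.05 and 1.40 CPM, so that its first and second treated libraries lay just above the highest DMSO library. Its log2 fold change of 1.57 was 0.62 without the third AG-205 library.

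**Figure D2:**
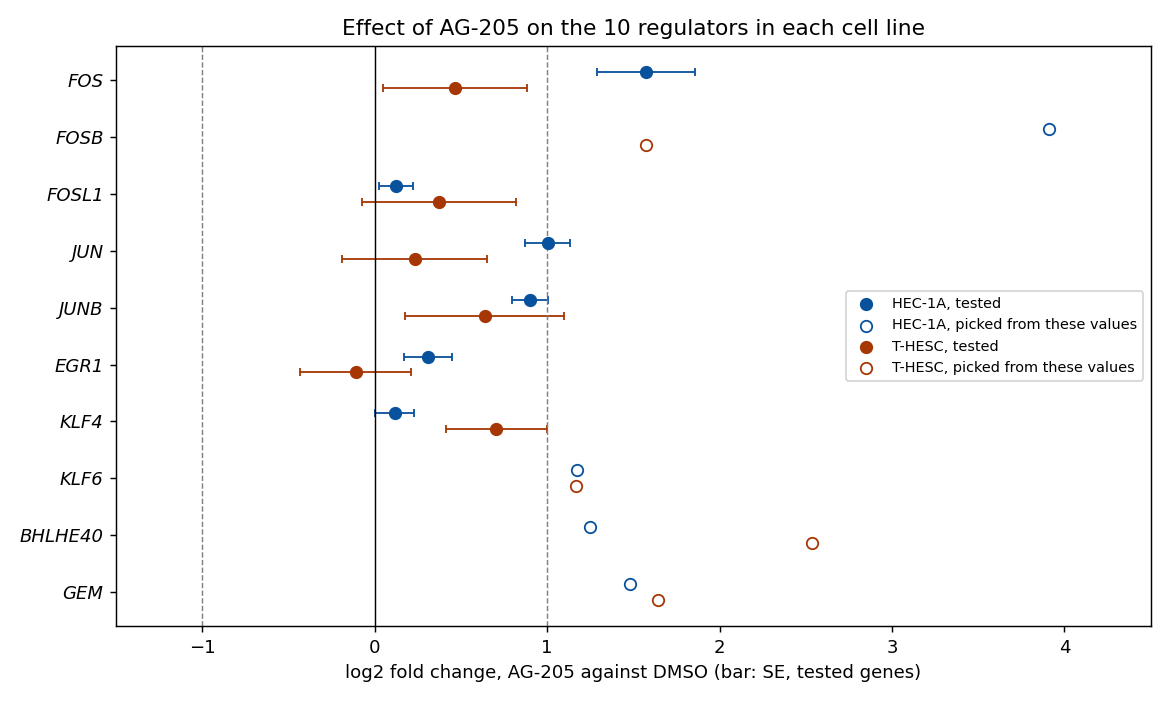
Log2 fold change of AG-205 against DMSO for the 10 genes in HEC-1A (blue) and T-HESC (brown); filled points are tested genes with a bar of 1 SE, open points the 4 genes picked from these values, and dashed lines the fold limit. FOSB in HEC-1A lies at 3.91 and BHLHE40 in T-HESC at 2.54, and the T-HESC bars are longer than those of HEC-1A for every tested gene.

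Whether AG-205 acted on these genes to a different extent in the lines was asked with the interaction over all 12 libraries, the T-HESC log2 fold change minus that of HEC-1A. None of the 6 tested genes was called, with 0 at an unadjusted p below 0.05 and 0 called by DESeq2, against 0.174% of 16132 genes called in either direction. The differences were -1.07 ± 0.55 for FOS (adjusted p = 0.844, edgeR), -0.75 ± 0.48 for JUN (adjusted p = 0.917), -0.40 ± 0.39 for EGR1, -0.24 ± 0.51 for JUNB, 0.27 ± 0.50 for FOSL1 and 0.61 ± 0.30 for KLF4. The 95% interval for FOS, -2.27 to 0.13, held both a much smaller effect in T-HESC and an equal one. JUN was called lower in its T-HESC effect when the third T-HESC AG-205 library was left out (-1.42, adjusted p = 0.0461, edgeR) and the library quality weights gave -1.05 (adjusted p = 0.0427, limma; 0.0427 to 1.00 over 18 alternatives). With the same weights KLF4 had an adjusted p of 0.0449 (limma), its lowest over 18 alternatives, and was not called. Side by side and without a test, the T-HESC and HEC-1A values were 1.16 and 1.17 for KLF6, 1.64 and 1.48 for GEM, 2.54 and 1.25 for BHLHE40, and 1.57 and 3.91 for FOSB.

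The vehicle cultures showed how differently the lines set these genes without AG-205. GEM and FOSB were below the count minimum in HEC-1A and entered this fit through T-HESC, where they are high, so that they had to differ and are described without a test. Of the other 8, 6 passed at an adjusted p under 0.05 as higher and 2 as lower in T-HESC (edgeR's quasi-likelihood test), against 36.1% and 36.0% of 14789 genes. Past the fold limit 4 were higher and 2 lower, against 22.3% of all genes in each direction and 44.6% in either. The 3 T-HESC libraries were all above the 3 HEC-1A libraries for 6 of the 8, against 38.0% of all genes, and all below for 2, against 38.7%. These DMSO libraries are also the controls of the AG-205 comparisons.

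GEM measured 0.589 ± 0.051 CPM (SD, n = 3) in HEC-1A, from 6 to 8 counts, and 24.6 ± 6.35 CPM in T-HESC (log2 fold change 5.35). FOSB measured 0.339 ± 0.088 and 4.44 ± 2.63 CPM, a log2 fold change of 3.69 that rests on 3 to 5 counts in the HEC-1A libraries. JUN was 9.45-fold higher, at 364 ± 16.6 against 38.3 ± 1.20 CPM. FOSL1 was 5.23-fold higher, at 296 ± 64.9 against 56.4 ± 2.20 CPM, and KLF6 4.92-fold, at 249 ± 10.6 against 50.4 ± 2.04 CPM. FOS had a log2 fold change of 1.66 ± 0.37 (adjusted p = 0.0033, edgeR), with 6.29 ± 2.89 against 2.00 ± 0.18 CPM. JUNB (0.99 ± 0.25) and EGR1 (0.56 ± 0.18) were under the fold limit. JUNB ran from 0.80 to 1.29 over 13 alternatives and was past the limit without the third T-HESC library (1.29), with library quality weights (1.13) and without the filter on low counts (1.01). The adjusted p of EGR1, 0.0197, reached 0.0901 over 13 alternatives. KLF4 was lower in T-HESC, at 7.24 ± 1.00 against 19.2 ± 1.36 CPM (log2 fold change -1.41 ± 0.15). BHLHE40, described without a test, was also lower, at 20.9 ± 11.7 against 125 ± 3.77 CPM (log2 fold change -2.59 ± 0.32). BHLHE40 with AG-205 in T-HESC, at 123 ± 48.8 CPM, lay near its vehicle level in HEC-1A.

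**Figure D3:**
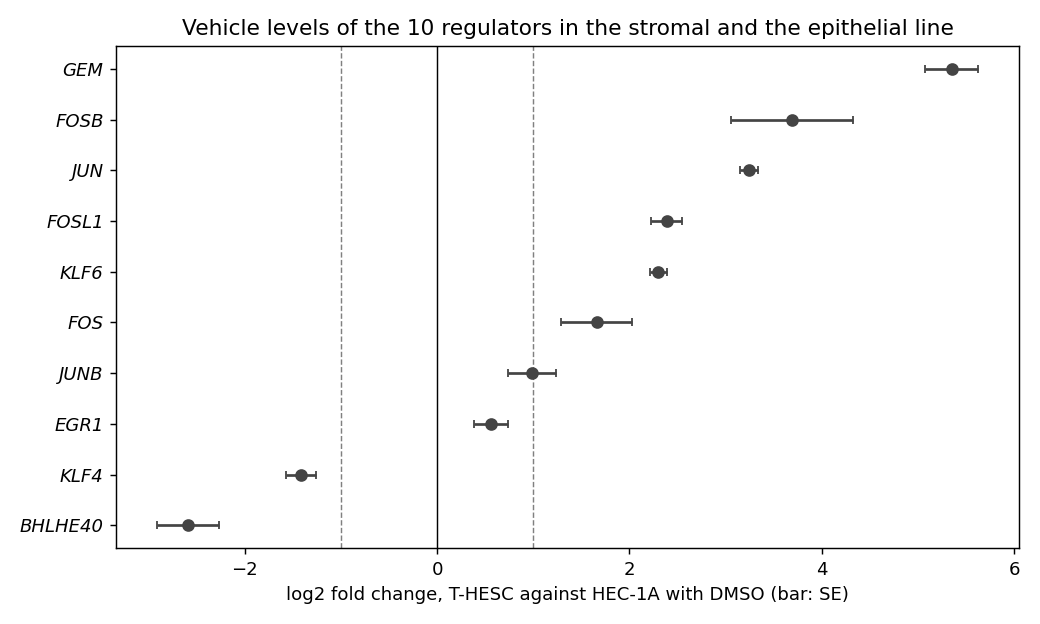
Log2 fold change of T-HESC against HEC-1A, both with DMSO, for the 10 genes. The bar is 1 SE and dashed lines mark the fold limit. GEM, FOSB, KLF6 and BHLHE40 are a description without a test. GEM lies highest at 5.35 and BHLHE40 lowest at -2.59, and JUNB and EGR1 lie inside the limit.

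Levels of different genes were compared per kilobase of exon (CPM per kb). In HEC-1A with DMSO the order was BHLHE40 (35.6 ± 1.07, SD, n = 3), FOSL1 (29.9 ± 1.16), JUNB (23.2 ± 0.41), EGR1 (20.5 ± 0.76), JUN (10.6 ± 0.33), KLF6 (8.21 ± 0.33), KLF4 (5.24 ± 0.37), FOS (0.629 ± 0.056), GEM (0.222 ± 0.019) and FOSB (0.061 ± 0.016), and the libraries of no neighbouring pair overlapped. With AG-205, BHLHE40 (82.3 ± 14.2) and JUNB (42.1 ± 5.88) led; FOSL1, EGR1, JUN and KLF6 overlapped with their neighbours, as did FOS, FOSB and GEM. In T-HESC with DMSO, FOSL1 (157 ± 34.4) and JUN (100 ± 4.57) led and stood apart from each other, JUNB, KLF6 and EGR1 overlapped in turn, GEM (9.31 ± 2.40) overlapped with BHLHE40 (5.94 ± 3.33), and KLF4, FOS and FOSB were lowest. With AG-205 every neighbouring pair in T-HESC overlapped except EGR1 and KLF4.

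Within the FOS family, FOSL1 was the most abundant member per kb in all 12 libraries and FOSL2 the second. FOSL1 made up 59.2 ± 3.61% of the family in HEC-1A with DMSO and 62.1 ± 4.30% with AG-205, and 81.3 ± 0.20% and 84.2 ± 1.63% in T-HESC. FOS and FOSB together stayed a small share: in HEC-1A FOS went from 1.25 ± 0.10% with DMSO to 3.39 ± 0.90% with AG-205, and FOSB from 0.122 ± 0.034% to 1.69 ± 0.66%. The summed FOS family in HEC-1A was 50.5 ± 1.24 CPM per kb with DMSO and 51.3 ± 8.10 with AG-205. The summed JUN family was 91.4 ± 5.61 and 164 ± 18.9 CPM per kb, with nearly the same makeup: JUND 63.0 ± 2.08% and 61.8 ± 1.70%, JUNB 25.4 ± 1.09% and 25.7 ± 0.62%, JUN 11.6 ± 1.00% and 12.5 ± 1.29%. In T-HESC with DMSO, JUN took 37.3 ± 7.70% and JUNB 16.4 ± 4.13%. Among the KLF factors, KLF6 held 10.5 ± 0.64% in HEC-1A with DMSO and 20.5 ± 1.99% with AG-205, and 25.4 ± 1.34% and 43.9 ± 10.2% in T-HESC, where it ranked first in every AG-205 library. These shares are descriptions without a test.

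**Figure D4:**
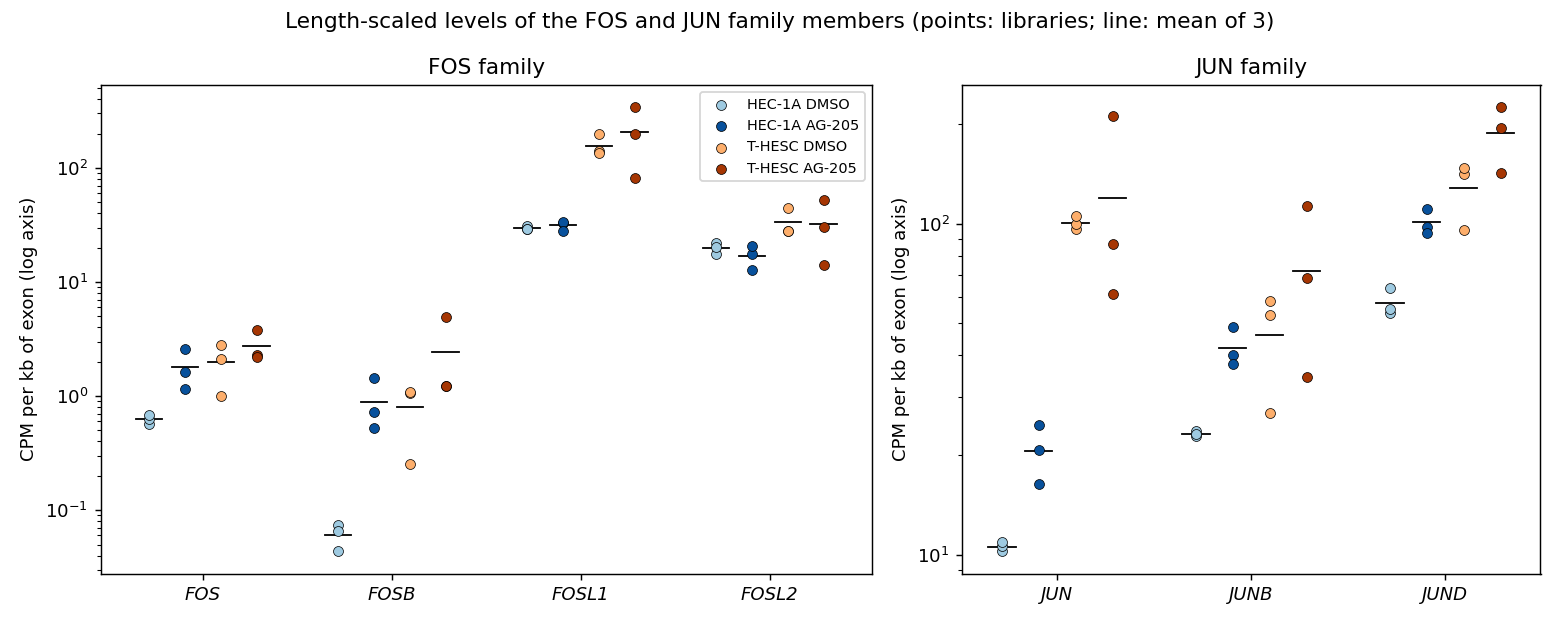
CPM per kb of exon of the FOS and JUN family members in the 12 libraries, on log axes; points are libraries, colours the 4 groups and lines the mean of 3. FOSL1 and FOSL2 lie above FOS and FOSB in every group, and all 3 JUN family members are higher with AG-205 than with DMSO in HEC-1A.

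The surrounding pathway was read from lists of related genes, which were chosen with earlier results of these data known. The counts below are therefore descriptions and no evidence for a list as a whole. Over all genes tested in HEC-1A, 2.58% were called higher and 0.205% lower. In HEC-1A, 1 of 10 tested further AP-1 subunits and partners was called higher with AG-205: ATF3, a stress-induced partner of JUN (log2 fold change 1.37 ± 0.16, adjusted p = 0.000122, edgeR's quasi-likelihood test). The list median was 0.15 against 0.01 over all genes. Of 17 tested further immediate early genes, 2 were called higher and 1 lower, with a median of 0.08. They were the orphan nuclear receptor NR4A1 (1.76 ± 0.25), the mRNA decay factor ZFP36 (1.06 ± 0.16) and, in the other direction, the matricellular gene CCN2 (-1.16 ± 0.16). Of 13 tested KLF and SP factors, KLF13 was called (1.08 ± 0.14), and the median was -0.09. Of 12 tested genes with known AP-1 sites, 3 were called higher and all 12 had a positive log2 fold change, with a median of 0.54. The called genes were PLAUR, the urokinase receptor (1.73 ± 0.27), HMOX1, heme oxygenase (1.22 ± 0.15), and PLAU, urokinase itself (1.20 ± 0.09, adjusted p = 2.5e-06, edgeR).

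No gene was called in HEC-1A among 12 ERK output and feedback genes (median 0.00, from -0.40 to 0.79). None was called among 16 upstream kinases and ternary complex factors (median -0.11) and 11 tested clock genes (median 0.02). The same held for 2 tested GEM relatives and 8 heat shock genes (median 0.25). Of these 49 genes, 14 had an unadjusted p below 0.05 (edgeR) and 0 were called by DESeq2. Over all 14122 genes tested in HEC-1A, 3693 had an unadjusted p below 0.05 (edgeR). Over the 9 lists, 14 genes had an adjusted p under 0.05 in HEC-1A without reaching the fold limit, 10 higher and 4 lower, and 5 of them belong to these lists without a call. JUND (0.84 ± 0.10, adjusted p = 0.000209, edgeR) and the heat shock gene HSPA1B (0.82 ± 0.12) had the smallest adjusted p of the 10, and the kinase PLK2 (-0.73 ± 0.11) of the 4. In T-HESC, edgeR called 0 of the 109 tested genes of the 9 lists, with 24 at an unadjusted p below 0.05, and DESeq2 called 6. As the lists were chosen with earlier results known, these counts are a description. Over all 13753 genes tested in T-HESC, edgeR called 11, with 740 at an unadjusted p below 0.05, and DESeq2 called 128. The median there was 0.51 over 14 tested genes with known AP-1 sites, 12 of them positive, against 0.02 over all genes. It was 0.32 over 21 immediate early genes, 0.31 over 11 AP-1 subunits and partners and 0.30 over 11 ERK output and feedback genes, 9 of them positive. For KLF and SP factors, upstream kinases, clock genes and heat shock genes the medians lay between -0.05 and 0.04. The 1 tested GEM relative, RRAD, had a log2 fold change of 0.91 ± 0.95. The difference of the AG-205 effects between the lines was called for 1 of 21 tested immediate early genes, the small GTPase RHOB, and for 1 of 15 tested genes with known AP-1 sites, F3, the gene of tissue factor; with the replicate number as a block neither was called (adjusted p = 0.189 and 0.217, edgeR). Between the vehicle cultures, 12 of 19 tested immediate early genes were called higher and 1 lower in T-HESC, against 22.3% of all genes in each direction. The higher genes included the MAP kinase phosphatase DUSP1 (5.68 ± 0.17), CCN2 (4.40 ± 0.40) and IER5 (4.14 ± 0.14). SGK1 and NR4A3 are in that count, but they did not pass the filter in the HEC-1A fit. They entered the vehicle fit through T-HESC, so that they had to differ. The kinase gene SGK1 had 2 or 3 counts per library in HEC-1A and 73.4 to 136 CPM in T-HESC. ERK output genes went both ways, 3 higher and 5 lower of 12 tested. DUSP4, one of the lower genes, did not pass the filter in the T-HESC fit and entered through HEC-1A, so that it had to differ. Among the ERK output genes, PHLDA1 (4.18 ± 0.17) and the sphingosine kinase SPHK1 (7.23 ± 0.21) were higher and the ETS factor ETV4 (-3.34 ± 0.10) and the phosphatase DUSP4 (-6.04 ± 0.18) were lower, DUSP4 from 8, 5 and 6 counts in the T-HESC libraries.

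**Figure D5:**
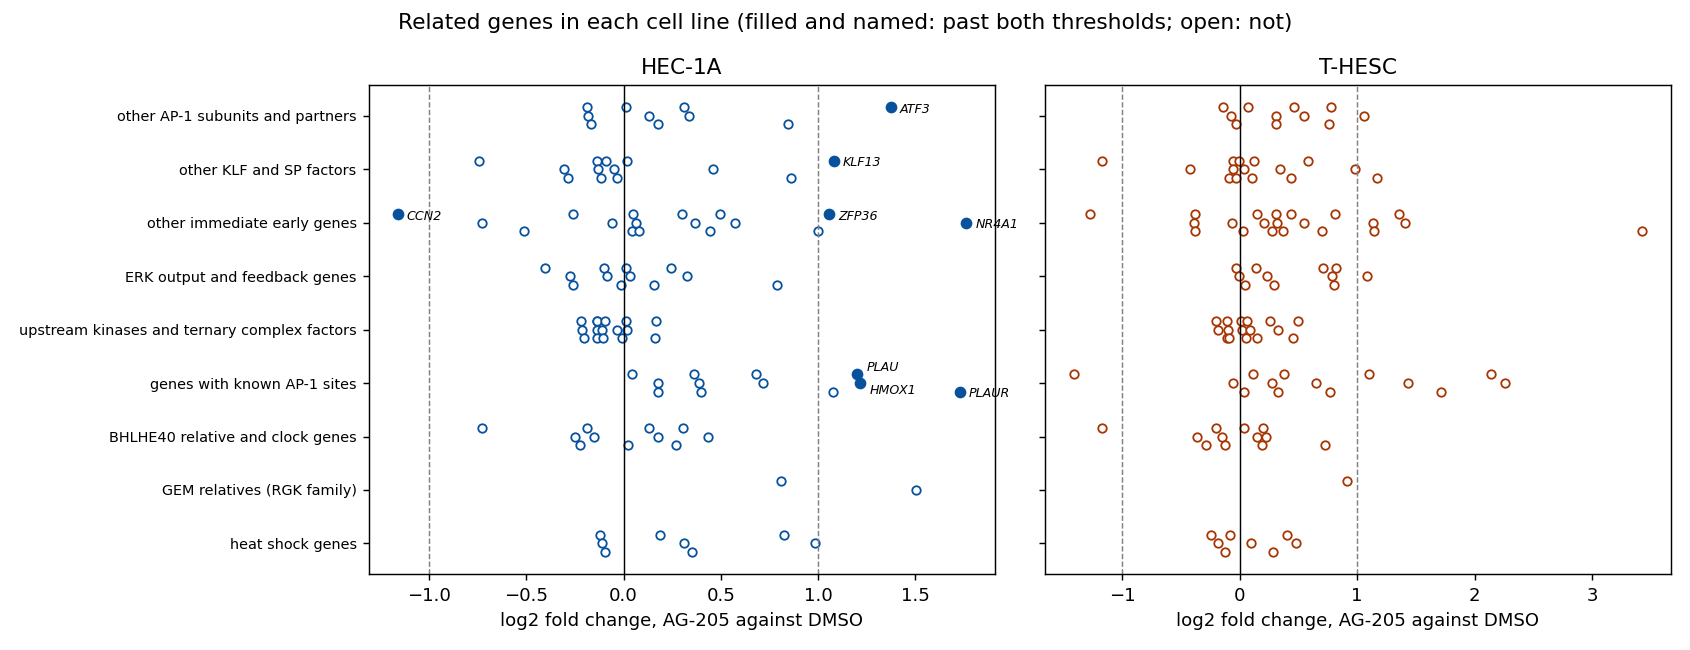
Log2 fold change of AG-205 against DMSO for each tested gene of the 9 related lists in HEC-1A (left) and T-HESC (right); filled and named points pass both thresholds, open points do not, and dashed lines mark the fold limit. The 12 genes with known AP-1 sites in HEC-1A all lie to the right of 0, and no point is filled in T-HESC. The lists were chosen with earlier results of these data known.

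For each of the 10 genes, the genes with the most similar pattern over the 12 libraries were found by the root mean square difference of centred log2 CPM among 16132 genes; the libraries share 4 groups, so that the measure follows the difference between the lines first. FOS was nearest to YPEL2 (0.25), LURAP1L (0.35) and JUND (0.36), and JUNB to CITED4 (0.16), YPEL2 (0.21) and PNRC1 (0.25). Members were near each other in a few cases: JUNB was the 5th nearest gene to FOS, and FOS the 9th nearest to FOSB. JUN was nearest to BCL6 (0.30), CYTH3 (0.31) and SLC16A3 (0.32), and FOSL1 to PKD2 (0.19) and PPARD (0.21). FOSB was nearest to SAT1 (0.81), SMIM10L2B (0.85) and INSIG1 (0.90), and BHLHE40 to QPRT (0.55), DHCR7 (0.57) and TMEM97 (0.59). FOSB, KLF6, BHLHE40 and GEM were picked because AG-205 raised them in both lines, so genes near to them share that pattern by the choice. The distances of FOSB were the widest of the 10. KLF6 was nearest to ORAI3 (0.26), SDCBP (0.31) and SMIM29 (0.31), KLF4 to DUSP3 (0.13), SLC3A2 (0.15) and CHKA (0.17), EGR1 to CHD6 (0.11), GOLGA3 (0.15) and TAF1 (0.16), and GEM to TM4SF1 (0.46), ETS1 (0.49) and CTSK (0.50).

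Opposite-strand genes overlap 3 of the 10: HOOK2 covers 14.2% of the JUNB exon length, BHLHE40-AS1 12.8% of BHLHE40 and an unnamed long noncoding RNA 9.75% of KLF4. Whether counting used the strand was not stated, so reads in these stretches may belong to either gene. FOSL1 and KLF4 each have 1 annotated pseudogene with which reads could be shared.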

How the data were processed

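The authors sequenced the 12 libraries, and the tools in their processing notes were Trimmomatic 0.38 for read trimming, HISAT2 2.1.0 for alignment (genome GRCh38) and, for counting per Ensembl gene, featureCounts of Subread 2.0.0. The deposited values are raw counts; strand setting and treatment of multimapping reads were not given in the sources used here. The 10 genes and the lists of related genes were chosen with earlier results of these data known. Genes were matched by symbol (152 of 152 list symbols).

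Counts were fitted in R 4.3.3 with edgeR 4.0.16 (TMM, filterByExpr, quasi-likelihood test, Benjamini-Hochberg adjustment over all genes tested): one fit per comparison, with all 12 libraries for the difference between lines. A gene was called at an adjusted p below 0.05 and an absolute log2 fold change above 1. SE is the log2 fold change over the root of F, and 95% intervals use the t quantile of that fit. CPM per kb uses the GENCODE 44 exon length. All 10 genes passed the filter in every comparison. Named from each list were at most 4 called genes by size or, with none called, the 2 of highest mean CPM; of the latter, those without a result of their own are counted only. Between vehicle cultures 2 of the 9 lists are described. JUND, HSPA1B and PLK2 in HEC-1A are named in addition, and were chosen after their values were seen. NR4A3 is named in addition because of the filter it did not pass. The 3 nearest patterns are named per gene, except 1 that is not reported here (log2 CPM with a prior count of 2).

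Alternatives were RLE factors, DESeq2 1.42.0, no filter, a replicate block, no limit on the fold, one fit over the 12 libraries and each library left out, and, chosen after seeing the data, limma 3.58.1 with library quality weights. The scripts were tested on simulated data with 200 changed genes. P-values measure the spread between 3 libraries per group. Replicate pairs differed by more than sampling noise (chi-square per degree of freedom 1.79 to 207 over 12 pairs). At the lowest total of 7168542 counts, 3 counts is the floor below which a level was not read.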

Additional observations from a re-analysis of the deposited data

Results flagged for a closer look

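Among the lists of related genes, the difference of the AG-205 effects between the lines passed the interaction test of edgeR for RHOB and F3. RHOB, a small GTPase switched on as an immediate early gene, differed by -1.83 ± 0.24 on the log2 scale (T-HESC minus HEC-1A, SE; adjusted p = 0.0128, edgeR). With AG-205 it measured 85.2, 105 and 96.7 CPM in T-HESC against 204, 200 and 284 CPM with DMSO, and 119, 143 and 107 CPM in HEC-1A against 87.5, 83.4 and 84.3 CPM. Every treated library was lower in T-HESC and higher in HEC-1A. F3, the gene of tissue factor, which starts coagulation, differed by -1.76 ± 0.27 (adjusted p = 0.0267, edgeR). It measured 91.1, 60.1 and 62.3 CPM in T-HESC against 168, 194 and 210 CPM, and 38.7, 42.5 and 43.8 CPM in HEC-1A against 34.1, 31.1 and 34.5 CPM. Within T-HESC alone the log2 fold changes of RHOB and F3, -1.27 and -1.41, did not pass the test (adjusted p = 0.158 and 0.185, edgeR). The calls depended on the setting: with the replicate number as a block the adjusted p was 0.189 for RHOB and 0.217 for F3. Of 18 alternatives, 12 called RHOB (-1.92 to -1.63) and 7 called F3 (-2.02 to -1.66). The call of RHOB was lost without any one HEC-1A library except AG-205 library 3. That of F3 was lost on leaving out any one library except T-HESC AG-205 library 1 or 3. Of 16132 genes, 0.174% were called for this difference.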

How the results depend on the processing

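Counts of called genes depended on the settings. In HEC-1A the count of 393 became 1643 without the fold limit and 141 in the fit of all 12 libraries, and 310 to 589 with one library left out. In T-HESC the count of 11 became 128 with DESeq2, 181 without the filter, 160 in the fit of all 12 libraries and 333 with quality weights, and 0 to 72 with one library left out, the highest without the first AG-205 library. For the difference between lines the count of 28 became 90 with DESeq2, 141 without the filter and 380 with quality weights, and 4 to 80 with one library left out. Between vehicle cultures 6593 became 10664 without the fold limit. The cause of these shifts was not tested. With the replicate number as a block the counts were 363, 9, 0 (779 genes at an unadjusted p below 0.05, edgeR) and 6594. Deviations of same-numbered libraries correlated at -0.08 to 0.23 (HEC-1A) or -0.53 to 0.22 (T-HESC), so the numbers were not taken to pair them. Of the tested genes, 0 to 3 of 6 were called in HEC-1A, 0 or 1 in T-HESC and 0 or 1 for the difference. Directions turned as follows. In T-HESC, quality weights gave -0.027 for JUN, -0.23 for JUNB and 0.27 for EGR1; JUN and FOSL1 also turned without the third AG-205 library, and EGR1 without the first AG-205 or the third DMSO library. The difference between lines of KLF6, near 0, was -0.015 with RLE factors and with DESeq2, -0.070 with the replicate block, -0.48 with quality weights and -0.31 to 0.24 with one library left out. That of GEM was -0.088 with quality weights. With one library left out, JUN ran from -0.43 to 0.52, FOSL1 from -0.17 to 0.74 and EGR1 from -0.28 to 0.14 in T-HESC, and the difference between lines from -0.080 to 0.41 for GEM, from -0.70 to 0.083 for JUNB and from -0.27 to 0.64 for FOSL1. No other value of the 10 genes changed sign. FOSB and GEM in HEC-1A with DMSO rest on few counts, 3 to 8 per library.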

Other observations

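Among the other immediate early genes, EGR2, a zinc finger paralogue of EGR1, stood out in T-HESC and was chosen here after its values were seen. It measured 5.87, 8.11 and 13.5 CPM with AG-205 and 1.20, 0.757 and 0.500 CPM with DMSO, from 67, 106 and 156 counts against 16, 9 and 5. All 3 treated libraries were higher, as for 6.23% of all genes in T-HESC, and the log2 fold change was 3.42 ± 0.47 (SE). EGR2 was not among the genes called in T-HESC. It did not pass the filter between the vehicle cultures and entered the T-HESC fit through the treated libraries. Its value is therefore a description without a test. In HEC-1A it had 1 to 5 counts per library and was not tested.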
